A study of Mus musculus with 12 samples.

Results

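The mRNA of the nuclear-encoded genes of the mitochondrial respiratory chain was measured in whole liver of 12 mice by total RNA-seq. Members were the protein-coding nuclear genes whose symbols begin with Ndufa, Ndufb, Ndufc, Ndufs, Ndufv, Uqcr, Cox4i, Cox5, Cox6, Cox7, Cox8 or Atp5, plus Sdha, Sdhb, Sdhc, Sdhd and Cyc1, with assembly factors (Ndufaf) left out. Of 40551 genes counted, 91 identifiers fit these symbols, and 86 of them held at least 10 counts in 3 or more libraries. These 86 members comprised 39 of complex I, 4 of complex II, 9 of complex III, 15 of complex IV, and 19 of complex V. All 86 passed the low-count filter of the test. The 5 identifiers left out were Ndufb11b, Cox7b2, and Cox8c, at 0 counts in every library, Cox5b-ps, with at most 5 counts, and Cox6a2, with at least 10 counts in 2 libraries.

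The livers belonged to 4 genotypes with 3 mice each, and mice of one genotype served as replicates. WT livers carried neither deletion. Mcl1 KO livers came from Mcl1Δhep mice, in which Cre under the albumin promoter removes floxed Mcl1 in hepatocytes, so that the other cells of the liver keep the gene. Sting1 KO mice lacked Sting1 in all cells, and Mcl1 Sting1 DKO mice carried both changes. The study used WT, Mcl1Δhep, and Mcl1Δhep Sting1 -/- mice of 2 and 12 months and describes its liver transcriptomes of Mcl1Δhep mice as from 2 months, and the labels give no age for each liver. MCL1 is a member of the Bcl-2 family that protects cells from apoptosis, and STING relays the sensing of cytosolic DNA to interferon signaling.

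Complexes I and II pass electrons from NADH and succinate to ubiquinone, complex III passes them to cytochrome c, and complex IV reduces oxygen. Complex V makes ATP from the proton gradient built by complexes I, III, and IV. Complex II is encoded by the nucleus alone and is also an enzyme of the citrate cycle, while the other complexes combine nuclear subunits with subunits made from the mitochondrial genome. Hepatocytes are rich in mitochondria, and several subunits of complex IV exist as a form found in most tissues and a form of skeletal muscle and heart.

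Total counts ranged from 28826367 to 45266387 per library. Mcl1 was at 90.2, 102, and 104 CPM (counts scaled to library size with TMM factors) in WT and at 27.9, 34.0, and 25.0 in Mcl1 KO livers, a log2 fold change of -1.77 (SE 0.16, adjusted p = 0.000605, edgeR). It was at 18.11 to 25.97 CPM in Mcl1 Sting1 DKO and at 77.0 to 90.1 in Sting1 KO livers, so each library fit the Mcl1 part of its label. Sting1 counts did not separate Sting1 KO from WT livers. Sting1 was at 2.53, 2.43, and 2.11 CPM in WT and at 1.16, 1.73, and 2.70 CPM in Sting1 KO livers, which overlapped (log2 fold change -0.33, SE 0.29, adjusted p = 0.998, edgeR). It was at 4.59, 5.997, and 3.67 CPM in Mcl1 KO and at 1.90, 2.53, and 2.33 CPM in Mcl1 Sting1 DKO livers, which did not overlap (-1.05, SE 0.29, adjusted p = 0.134, edgeR). Against WT, Sting1 was called higher in Mcl1 KO livers (0.99, SE 0.29, adjusted p = 0.0324, edgeR). The deleted part of Sting1 is not given in the sources used here, and counts over the whole gene cannot tell a truncated transcript from an intact one. The Sting1 genotype of each library therefore rests on its label alone, here and in the comparisons below. Y-linked genes held 5294 and 4589 counts in WT livers 2 and 3, 4233 in Mcl1 Sting1 DKO liver 1, and at most 6 in each of the others, all 3 Mcl1 KO livers among them. Hepatocyte markers summed to between 105200 and 168400 CPM in all 12 livers. Measures that set single livers apart are given beside the results they move with, namely small structured RNA in Mcl1 KO livers 2 and 3, skeletal muscle mRNA in Mcl1 KO liver 3, and chromosome 6 in Mcl1 Sting1 DKO liver 3.

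Promoters of named members are shown first, since the factors NRF1, GABP, and YY1 are known regulators of genes of this chain. RefSeq promoters (GRCm38.p6, 250 bases before to 50 after the start, 300 in all, read 5′ to 3′ on the strand of the gene) were at hand for 68 of 85 member symbols. Capitals mark matches, on either strand, to 5 short motifs, namely GCGCATGCG for NRF1, CCGGAAG for ETS factors such as GABP, AAGATGGC for YY1, AAGGTCA for estrogen-related receptors, and GGGCGGG for SP1. Sdha and Sdhd belong to the same complex, Ndufb8 and Cox6a1 are among the abundant members of complexes I and IV, and Cox7a1 and Cox8b are muscle forms.
Sdha (chr13:74350191-74350490, minus strand): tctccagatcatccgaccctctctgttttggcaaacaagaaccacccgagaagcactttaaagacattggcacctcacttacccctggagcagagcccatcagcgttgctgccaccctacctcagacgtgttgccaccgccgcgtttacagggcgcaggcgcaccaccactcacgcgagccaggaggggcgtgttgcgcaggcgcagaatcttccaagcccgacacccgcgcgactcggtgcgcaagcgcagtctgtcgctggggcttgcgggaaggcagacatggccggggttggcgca
Sdhd (chr9:50603800-50604099, minus strand): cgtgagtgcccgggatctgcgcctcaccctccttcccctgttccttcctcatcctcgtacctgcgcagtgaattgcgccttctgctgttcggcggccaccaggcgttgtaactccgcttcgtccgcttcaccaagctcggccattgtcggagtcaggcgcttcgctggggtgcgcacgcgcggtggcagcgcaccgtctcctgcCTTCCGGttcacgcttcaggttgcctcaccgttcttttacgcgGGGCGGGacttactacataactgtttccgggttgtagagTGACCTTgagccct
Ndufb8 (chr19:44555393-44555692, minus strand): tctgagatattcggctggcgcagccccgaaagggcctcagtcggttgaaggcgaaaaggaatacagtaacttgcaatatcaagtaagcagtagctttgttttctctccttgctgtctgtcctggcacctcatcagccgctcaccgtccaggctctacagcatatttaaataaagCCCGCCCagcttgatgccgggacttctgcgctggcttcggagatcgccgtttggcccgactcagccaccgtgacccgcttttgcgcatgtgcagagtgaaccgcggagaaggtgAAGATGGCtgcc
Cox6a1 (chr5:115348909-115349208, minus strand): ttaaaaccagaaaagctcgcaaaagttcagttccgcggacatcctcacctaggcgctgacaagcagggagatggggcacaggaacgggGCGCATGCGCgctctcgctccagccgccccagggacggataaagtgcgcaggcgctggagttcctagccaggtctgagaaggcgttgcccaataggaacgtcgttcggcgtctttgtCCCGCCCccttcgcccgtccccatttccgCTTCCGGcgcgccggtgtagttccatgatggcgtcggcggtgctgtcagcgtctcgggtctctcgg
Cox7a1 (chr7:30183921-30184220, plus strand): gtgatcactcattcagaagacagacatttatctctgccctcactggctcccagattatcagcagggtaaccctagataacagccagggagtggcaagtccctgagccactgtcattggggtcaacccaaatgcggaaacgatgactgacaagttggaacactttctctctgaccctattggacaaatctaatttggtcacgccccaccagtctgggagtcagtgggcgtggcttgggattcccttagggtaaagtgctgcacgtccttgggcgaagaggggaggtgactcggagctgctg
Cox8b (chr7:140900397-140900696, minus strand): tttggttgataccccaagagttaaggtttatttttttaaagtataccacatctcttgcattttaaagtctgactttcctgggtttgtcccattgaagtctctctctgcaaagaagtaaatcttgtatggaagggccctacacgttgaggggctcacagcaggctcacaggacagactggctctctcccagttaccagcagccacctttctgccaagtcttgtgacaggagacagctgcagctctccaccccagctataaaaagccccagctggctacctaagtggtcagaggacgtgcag

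The letters of the NRF1 motif stood in 8 of 73 member promoters and in 1.8% of all 32851 promoters of the same length. The shares were 21.9% and 8.9% for the ETS motif, 13.7% and 2.7% for the YY1 motif, and 31.5% and 25.6% for the SP1 motif. The estrogen-related receptor motif stood in 8 of 73 member promoters and in 4.7% of all. In the promoter of Cox6a1 the NRF1 motif matched on both strands 1 base apart, 162 and 161 bases before the start, so its capitals run together. The windows of Sdha, Cox7a1, and Cox8b held none of the 5 motifs. A match is a run of letters, and binding was not measured.

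In WT livers, levels per transcript length (TPM, counts scaled by the length of one reference transcript per gene and by library size) covered a wide range. Atp5f1b, the catalytic β subunit of ATP synthase, was the most abundant member at 1578 ± 64.9 TPM (SD, n = 3), followed by its partner Atp5f1a, the α subunit, at 1025 ± 6.6. Ndufa4, named for complex I and found in complex IV, was at 923 ± 46.3 TPM, and Cox4i1, the common form of subunit 4 of complex IV, was at 873 ± 15.9. Means of Ndufa4 and Cox4i1 differed by about the spread between livers. Cox6a1 followed at 736 ± 23.1 TPM, and Ndufb8, second in complex I over all 12 livers, was at 364 ± 25.9. Of complex III, Uqcrb was at 503 ± 56.8 TPM and Uqcr10 at 416 ± 35.5, and Cyc1, the heme-bearing cytochrome c1, was at 215 ± 7.57. Of complex II, the flavoprotein Sdha was at 385 ± 9.69 TPM and the membrane anchor Sdhd at 314 ± 22.6, above the iron-sulfur subunit Sdhb at 112 ± 9.75 and the other anchor Sdhc at 100.3 ± 7.95. In TPM, Sdhb and Sdhc overlapped within their spread. Such orders depend on the reference transcript used, of 4030 bases for Sdhb, 3209 for Sdhc, and 1258 for Sdhd. By CPM in WT livers, Sdhb was at 220.1 ± 15.2, Sdhd at 192.3 ± 6.64, and Sdhc at 156.6 ± 7.69.

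Tissue forms were set apart by their levels. Cox4i2, the form of subunit 4 found in lung and in smooth muscle, was at 0.213 ± 0.118 TPM in WT, and Cox7a1, the muscle and heart form of subunit 7a, at 5.22 ± 2.14 TPM, against 323 ± 24.7 for the liver form Cox7a2. Cox8b was at 0.0823 ± 0.10 TPM beside 482 ± 27.0 for Cox8a, and Cox6b2, the testis form, at 0.391 ± 0.314 beside 580 ± 19.7 for Cox6b1. Ndufa4l2 was at 2.72 ± 0.557 TPM. The genes of the c-ring of ATP synthase, which encode the same mature protein, were at 508 ± 9.97 for Atp5mc3, 400.1 ± 50.2 for Atp5mc1, and 64.8 ± 5.40 for Atp5mc2. Atp5mg was at 5.61 ± 0.785 TPM with 30 to 63 counts per library. Whether this low count reflects its mRNA or the handling of overlapping and multimapping reads was not tested. Atp5po was counted under 2 identifiers whose intervals overlap on chromosome 16 (GRCm39, 91720317 to 91728575 and 91481286 to 91723870), so that its reads may have been split between them.

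The members moved together within a liver, and the 3 Mcl1 KO livers did not move the same way. In Mcl1 KO liver 1, 74 of 86 members lay below all 3 WT livers and 5 above them. In Mcl1 KO liver 2, 68 lay above all WT livers and 10 below, and in Mcl1 KO liver 3, 75 lay above and 7 below. Over all 15070 genes tested, 32.9% to 38.0% lay above and 33.9% to 38.8% below the WT range in these 3 livers. Across the 12 livers, 45 members had their lowest CPM in Mcl1 KO liver 1, and 43 and 26 had their highest in Mcl1 KO livers 2 and 3. The median member stood at -0.22 on the log2 scale relative to the WT mean in Mcl1 KO liver 1 and at 0.36 and 0.35 in livers 2 and 3, while WT livers ranged from -0.05 to 0.05.

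All 5 complexes took part. In Mcl1 KO liver 1 their medians ran from -0.28 (complex II) to -0.17 (complex IV). In Mcl1 KO liver 2 they ran from 0.08 (complex II) to 0.53 (complex V) and in liver 3 from 0.28 (complex II) to 0.44 (complex III). Mcl1 Sting1 DKO livers were closer to each other, with member medians of -0.14, -0.16, and -0.08, all below the 3 WT livers. Of the Sting1 KO livers, 1 and 2 were at -0.01 and -0.00 and liver 3 at 0.20, where 72 of 86 members lay above all WT livers.

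**Figure D1:**
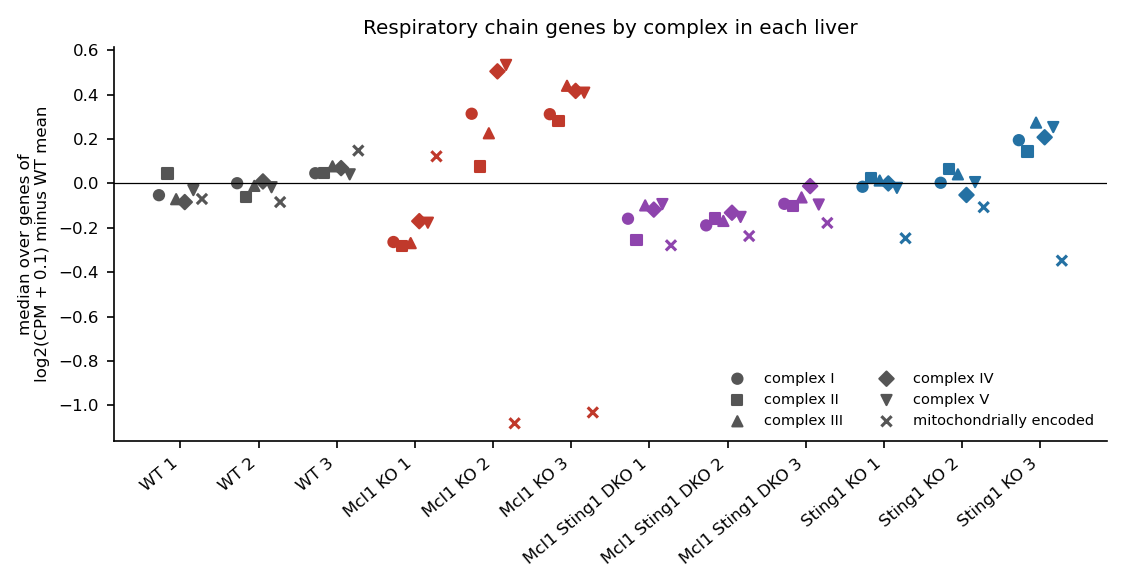
Median log2(CPM + 0.1) relative to the WT mean over the genes of each complex (symbols) in each of the 12 livers (columns, colored by genotype), with the mitochondrially encoded genes as crosses. All 5 complexes lie below 0 in Mcl1 KO liver 1 and above 0 in Mcl1 KO livers 2 and 3, where the crosses fall to -1.08 and -1.03.

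The same libraries stood apart in 3 shares of their counts. Members held 1.70% and 1.60% of all counts in Mcl1 KO livers 2 and 3 and 1.40% in Sting1 KO liver 3, against 1.15% to 1.22% in the other 9 livers. Small structured RNAs (snRNA, snoRNA, and the like) held 2.37%, 1.36%, and 0.897% of counts in the same 3 livers and 0.172% to 0.563% in the others. Cytosolic ribosomal protein genes, as a list of 78 tested genes, had medians of 0.63, 0.37, and 0.29 in these livers and of -0.19 to 0.15 in the others. Mitochondrial ribosomal protein genes, also 78, were at 0.38, 0.29, and 0.15 and otherwise at -0.22 to 0.06. The part of library composition in the member levels was not tested beyond the covariate fit given with the comparison. That covariate, the share of small structured RNA, was highest in Mcl1 KO livers 2 and 3. The fit therefore cannot fully separate composition from Mcl1 genotype.

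The subunits made from the mitochondrial genome went the other way. Transcripts of the mitochondrial genome held 0.580% and 0.565% of counts in Mcl1 KO livers 2 and 3, against 1.05% to 1.63% in the other 10 livers. mt-Co1, which encodes the catalytic subunit of complex IV, was at 10667, 10606, and 7580 CPM in WT and at 10947, 3228, and 3374 in Mcl1 KO livers. Mcl1 KO liver 1 thus lay above the WT livers for mt-Co1, and livers 2 and 3 lay below them. Of 13 mitochondrially encoded genes 8 were tested, and none passed edgeR's test in Mcl1 KO against WT livers (4 lower at an unadjusted p under 0.05, median log2 fold change -0.54). Of the 13, 6, including mt-Co2, mt-Co3, and mt-Atp6, were at no more than 0.5 CPM in every library, so their level could not be read from these counts.

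**Figure D2:**
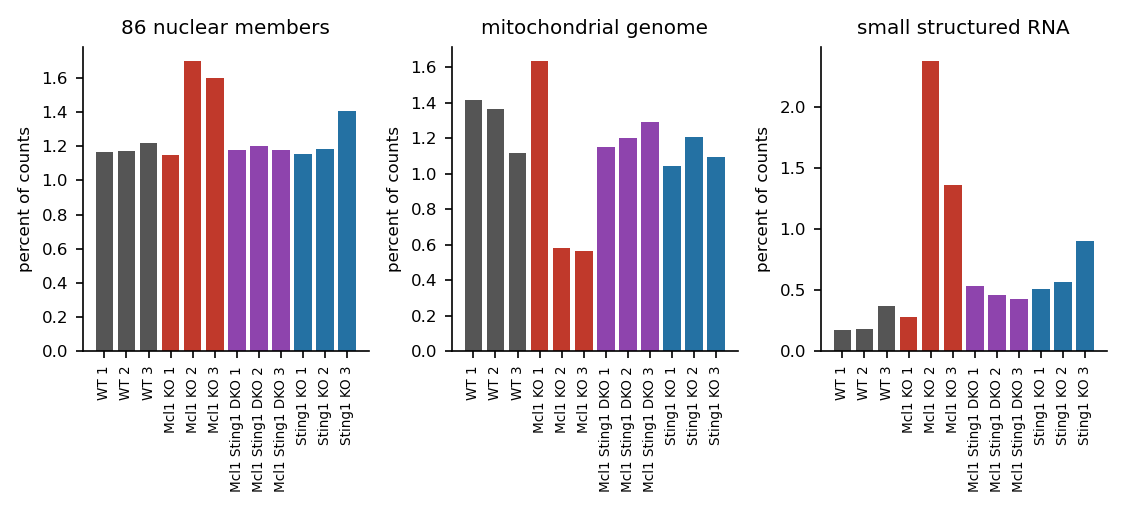
Percent of all counts per library (bars, colored by genotype) on the 86 nuclear members, on the mitochondrial genome, and on small structured RNA genes. Mcl1 KO livers 2 and 3 are highest for members and small structured RNA (1.70% and 1.60%, 2.37% and 1.36%) and lowest for the mitochondrial genome (0.580% and 0.565%).

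Mcl1 KO livers were compared with WT to ask how the loss of Mcl1 in hepatocytes bears on the respiratory chain genes. By edgeR's quasi-likelihood test with Benjamini-Hochberg adjustment over all 15070 genes (threshold 0.05), 4 of 86 members (4.65%) passed, while 20.2% of all genes did. Cox4i2, Cox7a1, and Atp5if1 were higher, where 10.8% of all genes were called higher, and Sdha was lower, where 9.43% of all genes were called lower. At an unadjusted p under 0.05 there were 16 members higher and 4 lower (36.9% of all genes in either direction). WT and Mcl1 KO livers did not overlap for 12 members, 5 higher and 7 lower, that is 14.0% of members and 33.3% of all genes. Cox4i2, which met the count rule only through the Mcl1 KO livers, was among the 4 calls and among these 5. The median member changed by 0.20 on the log2 scale and the median gene by -0.00.

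Sdha, the subunit of complex II that oxidizes succinate (GRCm39, chromosome 13, 74469359 to 74498436), was at 539, 587, and 604.5 CPM in WT and at 433, 270.3, and 323 CPM in Mcl1 KO livers. All 3 Mcl1 KO livers lay below all WT livers. The log2 fold change was -0.75 (SE 0.17, adjusted p = 0.0127, edgeR), a level 0.594 times that of WT. Sdha kept this call in 19 of 23 other fits. It was not called when WT and Mcl1 KO livers were fitted alone (-0.73, adjusted p = 0.0863, edgeR). Nor was it called once the small structured RNA share entered the model (-0.42, adjusted p = 0.217, edgeR). Adjusting for Y-linked genes left it just short of the threshold (-0.75, adjusted p = 0.0501, edgeR). The other subunits of complex II did not follow Sdha. Sdhb was at 225, 203, and 232 CPM in WT and 182, 260.0, and 277 CPM in Mcl1 KO livers, Sdhc at 162, 148, and 159 CPM against 128, 147, and 184, and Sdhd at 199.6, 187, and 191 CPM against 171, 269, and 278. Each was below the WT livers in Mcl1 KO liver 1, and Sdhb and Sdhd were above them in livers 2 and 3. Their log2 fold changes were 0.12, -0.04, and 0.31 (adjusted p from 0.235 to 0.882, edgeR). The median of the 4 genes was 0.04.

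Atp5if1, the inhibitor that keeps ATP synthase from running backward (chromosome 4, 132257215 to 132262823), was at 19.5, 12.5, and 15.4 CPM in WT and at 20.6, 29.6, and 28.1 CPM in Mcl1 KO livers. The lowest Mcl1 KO liver was just above the highest WT liver. Its log2 fold change was 0.72 (SE 0.18, adjusted p = 0.0171, edgeR), a level 1.65 times that of WT. Without Mcl1 KO liver 2 the adjusted p was 0.0701 and the log2 fold change 0.62, and without WT liver 2 they were 0.0736 and 0.57, and without WT liver 3, 0.0591 and 0.70. The catalytic subunits did not pass the test. Atp5f1a was at 1188 to 1263 CPM in WT and 1014 to 1142 CPM in Mcl1 KO livers (log2 fold change -0.20, SE 0.12, adjusted p = 0.251), and Atp5f1b at 1440 to 1555 against 1404 to 1613 CPM (0.03, SE 0.13, adjusted p = 0.870). Over the 19 members of complex V the median was 0.33, with 1 called.

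Cox4i2 (chromosome 2, 152595625 to 152606959) passed on few reads, with 4, 1, and 3 counts in WT and 14, 11, and 16 counts in Mcl1 KO livers. Only the 3 Mcl1 KO livers held at least 10 counts, so Cox4i2 became a member through the group in which it was called higher. Its call and its lack of overlap are therefore not read as a result about the members. In CPM these were 0.106, 0.0297, and 0.0991 against 0.290, 0.337, and 0.506, with no overlap. The log2 fold change was 1.69 (SE 0.36, adjusted p = 0.00991, edgeR). The 41 counts against 8 gave a ratio of 4.64, with an exact 95% interval of 2.15 to 11.5 that covers counting error only. Cox4i2 was at 5 counts in each Mcl1 Sting1 DKO liver. The common form Cox4i1 was at 317, 335, and 347 CPM in WT and 294, 539, and 488.5 CPM in Mcl1 KO livers, below WT in liver 1 and above it in the other two (log2 fold change 0.40, SE 0.21, adjusted p = 0.181).

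Cox7a1 (chromosome 7, 29883569 to 29885503) was at 1.58, 0.890, and 0.859 CPM in WT and at 2.05, 4.83, and 16.4 CPM in Mcl1 KO livers. Its log2 fold change was 2.73 (SE 0.64, adjusted p = 0.0141, edgeR) and 1.57 without Mcl1 KO liver 3 (adjusted p = 0.0393). Without WT liver 2 the adjusted p was 0.0604, and without WT liver 3 it was 0.0551. The 10 skeletal muscle markers summed to 1804 CPM in Mcl1 KO liver 3 and to between 0.439 and 9.88 CPM in the other 11 livers, where 0 to 9 of the 10 were at 0. Other muscle forms were highest in that liver. Cox8b had 0, 1, and 556 counts in Mcl1 KO and 2, 7, and 0 in WT livers (log2 fold change 5.36, SE 2.05, adjusted p = 0.0894), and Cox6a2, which is no member, had 497 counts in Mcl1 KO liver 3 and at most 12 elsewhere. Cox8b, known from brown fat as well as muscle, also had 17 and 34 counts in Mcl1 Sting1 DKO livers 1 and 2, and adipocyte markers summed to 88.7 CPM in Mcl1 KO liver 3, to 46.2 and 31.8 CPM in those 2, and to 5.44 to 27.8 CPM in the others. Cox8b met the count rule for members only through Mcl1 KO liver 3 and those 2 livers. The part of either marker list in the result was not tested. Mcl1 KO liver 2, with muscle markers at 1.07 CPM, held 158 counts of Cox7a1 against 26 to 60 in WT. The liver form Cox7a2 was at 113, 131, and 141 CPM in WT and 123, 205, and 182 CPM in Mcl1 KO livers (log2 fold change 0.41, SE 0.19, adjusted p = 0.150).

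**Figure D3:**
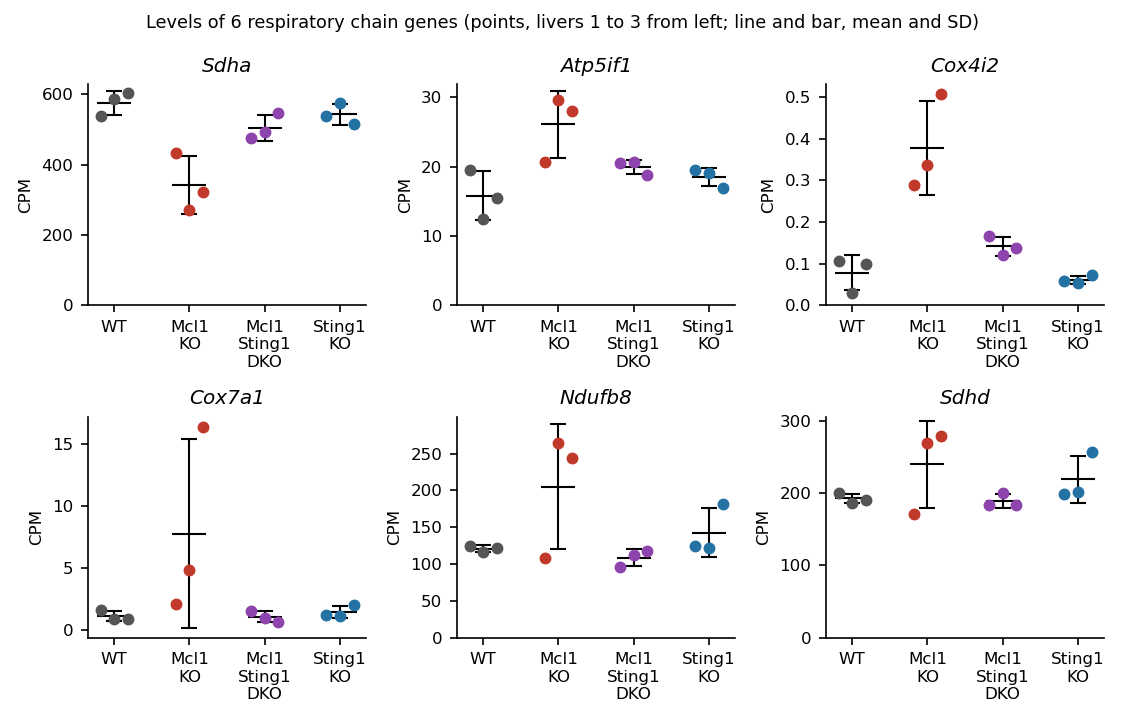
CPM of 6 members in each liver (points, livers 1 to 3 from left to right in each genotype), with the mean and SD of each genotype (n = 3). Sdha is lower and Atp5if1, Cox4i2, and Cox7a1 are higher in all 3 Mcl1 KO than in all 3 WT livers, while Ndufb8 and Sdhd are high in Mcl1 KO livers 2 and 3 and low in liver 1.

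Complex I, with 39 members, had no call by edgeR and a median log2 fold change of 0.15. At an unadjusted p under 0.05 there were 8, and DESeq2 called 3, with 15.7% of all genes called. Ndufb8, a subunit of its membrane arm, showed how single livers set the values, at 125, 116, and 121 CPM in WT and 108, 264, and 243 CPM in Mcl1 KO livers (0.76, SE 0.28, adjusted p = 0.0724). Ndufb7, another subunit of the membrane arm, was at 61.0, 61.4, and 64.2 CPM against 62.0, 114, and 97.0 (0.55, SE 0.19, adjusted p = 0.0557). Liver 1 lay among or below the WT livers for both genes. Ndufa4 was at 215, 249, and 251 CPM against 179, 346, and 312 (0.23, SE 0.24, adjusted p = 0.521), and Ndufa4l2 had a log2 fold change of 0.11 (adjusted p = 0.761).

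Complex III, with 9 members, also had no call by edgeR and a median of 0.14. At an unadjusted p under 0.05 there were 2, and DESeq2 called 1, with 15.7% of all genes called. Uqcr10 was at 81.9, 89.0, and 102 CPM in WT and 83.9, 168, and 140.5 in Mcl1 KO livers (0.52, SE 0.22, adjusted p = 0.114). Uqcrb went the other way, at 148, 130.5, and 131 CPM against 101, 123, and 124, lower in all 3 Mcl1 KO livers without passing the test (-0.23, SE 0.13, adjusted p = 0.211). Cyc1 was at 152, 157, and 169 CPM against 126.5, 186, and 216 (0.15, SE 0.18, adjusted p = 0.584). Complex IV, with 15 members, had a median of 0.28. Its common forms Cox6a1, Cox6b1, Cox7b, Cox8a, and Cox7a2l had log2 fold changes of 0.12, 0.28, 0.48, 0.17, and -0.07 (adjusted p from 0.127 to 0.763). Cox6b2, with 2 to 8 counts in WT and 11 to 18 in Mcl1 KO livers, was at 1.32 (SE 0.47, adjusted p = 0.0644). It met the count rule through 6 libraries, all 3 Mcl1 KO livers and no WT liver among them. It was among the 5 members higher without overlap. Of the c-ring genes, Atp5mc1, Atp5mc2, and Atp5mc3 had log2 fold changes of 0.38, 0.08, and 0.14 (adjusted p from 0.135 to 0.728).

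The number of calls changed without Mcl1 KO liver 1 and with a covariate for the composition of the libraries. Without Mcl1 KO liver 1, 44 members were called, 43 of them higher, while 34.1% of all genes were called. The median was 0.36 without that liver, 0.10 without Mcl1 KO liver 2, and 0.11 without liver 3. With liver 1 as the single Mcl1 KO library the median was -0.22. That fit takes its spread from the other genotypes, and few calls are to be had from 1 liver, so its counts of calls are not read here. With the share of small structured RNA as a covariate, no member was called by edgeR (14 at an unadjusted p under 0.05), the median was -0.23, and the calls over all genes fell from 20.2% to 2.7%. DESeq2 called 9 members, adding Atp5f1e, Ndufb7, Ndufb8, Uqcrh (higher), and Ndufs1 (lower) to the 4. It called 15.7% of 24525 genes. With Y-linked expression as a covariate, Cox4i2 and Cox7a1 remained called, with 10.2% of all genes. Sdha (adjusted p = 0.0501, edgeR) and Atp5if1 (adjusted p = 0.0909, edgeR) did not. Y-linked genes marked WT livers 2 and 3 and no Mcl1 KO liver, so sex and Mcl1 genotype cannot be fully told apart in this comparison. Fewer cells of a type and less RNA per cell cannot be told apart in whole tissue.

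Transcript length moved with the change over all genes. Among genes tested, the median log2 fold change in Mcl1 KO against WT livers was 0.38 for reference transcripts of up to 600 bases, 0.24 above that and up to 1000, 0.14 above that and up to 2000, and -0.07 above 2000 (548, 754, 2679, and 11031 genes). Members had medians of 0.25, 0.27, 0.11, and 0.12 in the same bins (18, 24, 23, and 21 genes). Pearson's r of log2 fold change with log2 length was -0.11 over the 86 members and -0.17 over 15012 genes, which share libraries and are not independent. With a trend on length removed, a fit chosen after seeing the data, the median member was at 0.00, and Cox4i2, Cox7a1, Sdha, Ndufa6, Ndufs7, Ndufv3, and Uqcrb were called, the first 2 higher and the other 5 lower. That fit called 21.4% of all genes.

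Genes that build or regulate the chain were read from lists. Of 63 assembly factors tested, 3 were called higher and 6 lower (14.3%, against 20.2% of all genes, median 0.02). Lrpprc, which stabilizes mitochondrial mRNA, was at a log2 fold change of -0.76 (SE 0.16, adjusted p = 0.00843), the complex IV insertase Cox18 at -0.94 (SE 0.21, adjusted p = 0.012), and the complex III factor Uqcc2 at 0.87 (SE 0.25, adjusted p = 0.0317). Of 17 regulators of mitochondrial biogenesis, 4 (23.5%) were called lower and none higher. Over all genes, 9.43% were called lower and 20.2% in either direction. The 4 were the coactivator Ppargc1b (-0.89, SE 0.22, adjusted p = 0.0192), Ppara (-0.83, SE 0.23, adjusted p = 0.0264), Gabpa (-0.65, SE 0.16, adjusted p = 0.0178), and Yy1 (-0.59, SE 0.17, adjusted p = 0.0348). The median of this list was -0.26. None of 13 citrate cycle enzymes was called by edgeR (4 lower at an unadjusted p under 0.05, median -0.23). Of 10 inner membrane carriers, Slc25a4, the muscle and heart form of the ADP/ATP carrier, was called higher (2.65, SE 0.64, adjusted p = 0.0163). Mcl1 KO liver 3 held skeletal muscle mRNA, with markers at 1804 CPM, and its part in the Slc25a4 value was not tested.

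Markers of some other cells differed between the same livers. Called higher in Mcl1 KO livers were 5 of 7 stellate cell, 4 of 8 macrophage, 4 of 4 neutrophil, and 2 of 7 lymphocyte markers tested. Of 10 hepatocyte markers 2 were called lower, and 3 of the 10 had a positive log2 fold change. Over all genes, 10.8% were called higher and 9.43% lower. None of 6 endothelial, 5 cholangiocyte, and 5 erythroid markers tested was called by edgeR, and 1 of 6 adipocyte markers was called higher. Stellate markers summed to 477, 582, and 578 CPM in Mcl1 KO and to 244 to 382 in WT livers, and macrophage markers to 678, 837, and 658 CPM against 356 to 534. Hepatocyte markers summed to 144900, 105600, and 113400 CPM in Mcl1 KO livers and 105200 to 158200 in WT, which overlapped, while the median hepatocyte marker was at -0.13, -0.39, and -0.46 in Mcl1 KO livers on the log2 scale relative to the WT mean and at -0.10 to 0.11 in WT. None of the stellate, macrophage, and hepatocyte markers was at 0 in any liver. Neutrophil markers, of which 0 or 1 of 5 was at 0, summed to 9.55 to 21.9 CPM in Mcl1 KO and to 2.85 to 4.59 CPM in WT livers. Their part in the member levels was not tested.

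Mcl1 Sting1 DKO livers were compared with Mcl1 KO livers to ask what the loss of Sting1, as labelled, changes in livers without hepatocyte Mcl1. No gene passed the test by edgeR (0% of 15070), and so no member did. At an unadjusted p under 0.05 there were 30 members, 1 higher and 29 lower, with 20.6% of all genes. DESeq2 called 5 members, Atp5f1e, Cox7a1, Ndufb7, and Ndufb8 lower and Sdha higher, and 663 genes in all (2.7%). The groups did not overlap for 9 members, 2 higher and 7 lower (10.5%), and for 18.2% of all genes. Cox4i2, which met the count rule only through the Mcl1 KO livers, was among these 7 and among the 29. Its place there is not read as a result about the members. Of the 86 members 78 had a negative log2 fold change, with medians of -0.25, -0.25, -0.30, -0.36, and -0.38 for complexes I to V and -0.00 for all genes. Ribosomal protein genes moved the same way, with 74 of 78 cytosolic (median -0.362) and 65 of 78 mitochondrial ones (median -0.225) negative. This comparison and that of Mcl1 KO against WT share the Mcl1 KO livers.

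Single members showed which livers these values rested on. Cox7a1 was at 1.54, 0.9504, and 0.629 CPM in Mcl1 Sting1 DKO livers, below all Mcl1 KO livers (-2.84, SE 0.64, unadjusted p = 0.000847, adjusted p = 0.131, edgeR). Without Mcl1 KO liver 3, where skeletal muscle markers summed to 1804 CPM, it was at -1.68 (adjusted p = 0.159, edgeR). Ndufb7 was at 54.4, 52.9, and 58.0 CPM, below the lowest Mcl1 KO liver at 62.0 (-0.72, SE 0.19, unadjusted p = 0.00221, adjusted p = 0.133, edgeR). Sdha was at 475, 493, and 546 CPM, above the 433 CPM of the highest Mcl1 KO liver and, save for liver 3, below the WT livers (0.56, SE 0.17, adjusted p = 0.143). Ndufb8 was at 96.4, 112, and 118 CPM and overlapped with Mcl1 KO liver 1. Atp5if1 was at 20.5, 20.6, and 18.8 CPM, beside 20.6 in Mcl1 KO liver 1 (-0.38, SE 0.18, adjusted p = 0.243).

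Leaving out Mcl1 KO liver 1 gave 53 called members, 52 lower and 1 higher, with 20.2% of all genes called and a median of -0.48. With liver 1 as the single Mcl1 KO library, the median member was at 0.13 in place of -0.30. The direction of the median member thus followed which Mcl1 KO livers entered.

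**Figure D4:**
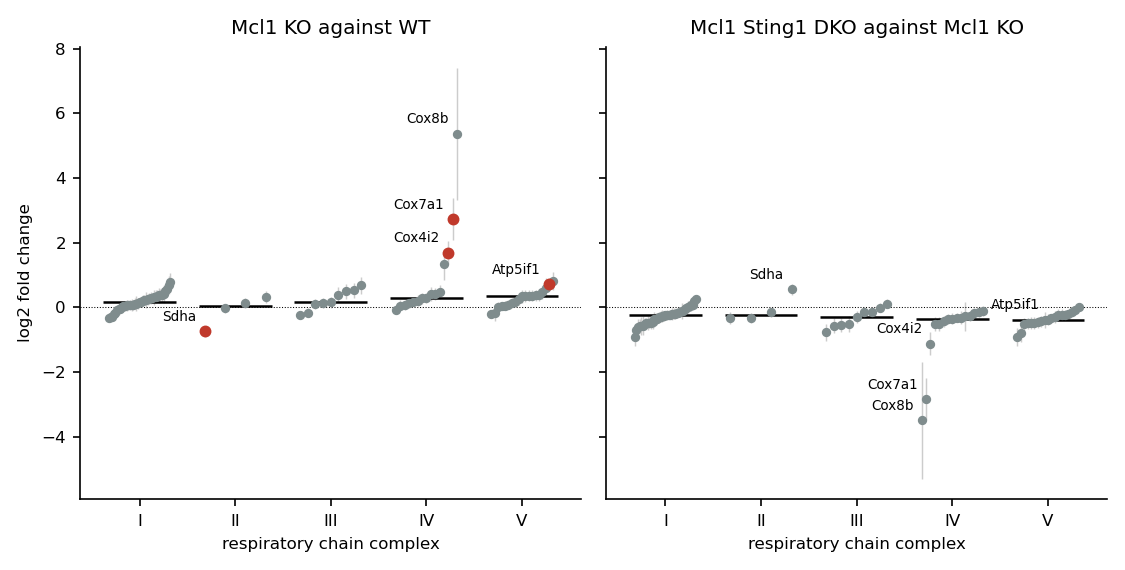
Log2 fold change (points) with SE (gray bars) of the 86 members by complex in Mcl1 KO against WT and in Mcl1 Sting1 DKO against Mcl1 KO livers, with the median of each complex as a black line. Red points passed edgeR's test (4 on the left, 0 on the right); medians run from 0.04 to 0.33 on the left and from -0.38 to -0.25 on the right.

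Sting1 KO livers were compared with WT livers to ask what the loss of Sting1 does where Mcl1 is intact, in libraries whose Sting1 counts overlapped. No gene was called by edgeR (0% of 15070), and 821 genes and none of the members were at an unadjusted p under 0.05. DESeq2 called 51 genes and none of the members. The median member changed by 0.06, and by -0.02 without Sting1 KO liver 3. The members with the lowest p were Atp5if1, at 19.5, 19.0, and 17.0 CPM in Sting1 KO livers (0.22, SE 0.18, adjusted p = 0.998, edgeR), and Ndufb7, at 68.7, 68.3, and 80.3 CPM, all above the WT livers (0.22, SE 0.19, adjusted p = 0.998, edgeR). 

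In Mcl1 Sting1 DKO against Sting1 KO livers, where Mcl1 differs on a Sting1 -/- background, 121 genes (0.803%) were called by edgeR and none was a member. One member was at an unadjusted p under 0.05, and DESeq2 called 461 genes and none of the members. The members were lower by small steps, with 78 of 86 negative and a median of -0.19. Of ribosomal protein genes, 74 of 78 cytosolic (median -0.164) and 58 of 78 mitochondrial ones (median -0.076) were negative. All 3 Mcl1 Sting1 DKO livers lay below all 3 Sting1 KO livers for 46 members (20 of complex I, 2 of complex II, 5 of complex III, 5 of complex IV, and 14 of complex V), while this held for 10.8% of all genes. Cox4i2 was the 1 member with no overlap in the other direction. Ndufs7, a subunit near the end of the electron path in complex I, was at 44.2, 42.9, and 49.1 CPM in Mcl1 Sting1 DKO and 53.2, 58.1, and 68.7 CPM in Sting1 KO livers (-0.40, SE 0.13, unadjusted p = 0.00786, adjusted p = 0.207, edgeR). Ndufb7 followed with -0.39 (SE 0.18, adjusted p = 0.459). Without Sting1 KO liver 3, in which members were high, the median was -0.12. The 121 calls became 1 to 3 without any 1 of the Sting1 KO livers 2 without Mcl1 Sting1 DKO liver 1 or 2, and 249 (1.62%) without Mcl1 Sting1 DKO liver 3.

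Whether the effect of Mcl1 differed with the Sting1 genotype was tested as an interaction. No gene was called by edgeR (0%), 2165 genes and 16 members were at an unadjusted p under 0.05, and DESeq2 called 170 genes, of which Cox7a1 was a member. The median member interaction was -0.40, beside -0.469 for cytosolic and -0.266 for mitochondrial ribosomal protein genes. Ndufb7 was at -0.94 (SE 0.26, unadjusted p = 0.00376, adjusted p = 0.255, edgeR) and Cox7a1 at -3.18 (SE 0.89, unadjusted p = 0.00384, adjusted p = 0.255, edgeR). Without Mcl1 KO liver 1, 36 members were called, 35 of them negative, with 10.2% of all genes called. With liver 1 as the single Mcl1 KO library the median was 0.02. Without Mcl1 KO liver 3, the liver with skeletal muscle mRNA, the Cox7a1 value was -2.02 (adjusted p = 0.258, edgeR).

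A shift of 1 chromosome touched 4 members. In Mcl1 Sting1 DKO liver 3 the median gene of chromosome 6 (630 genes) stood 0.30 above the other livers on the log2 scale, and 81.7% of these genes were higher than there. All 15 windows of 10 Mb along the chromosome had positive medians, from 0.21 to 0.47. The other 227 medians of 1 chromosome in 1 liver lay between -0.10 and 0.07. The members on chromosome 6 are Ndufa4, Ndufa5, Ndufa9, and Ndufb2, named after their values were seen. Ndufa9 was at 161 CPM in that liver and at 100.1 to 132 CPM in the other 11, and Ndufa5 at 58.5 CPM against 37.1 to 52.9. Both were highest there. Ndufa4 was at 324 CPM, against 232 and 210.4 in the other Mcl1 Sting1 DKO livers, and Ndufb2 at 57.8 CPM, against 41.9 and 42.9. Without this liver the median member was at -0.31 in Mcl1 Sting1 DKO against Mcl1 KO and at -0.20 against Sting1 KO livers.

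**Figure D5:**
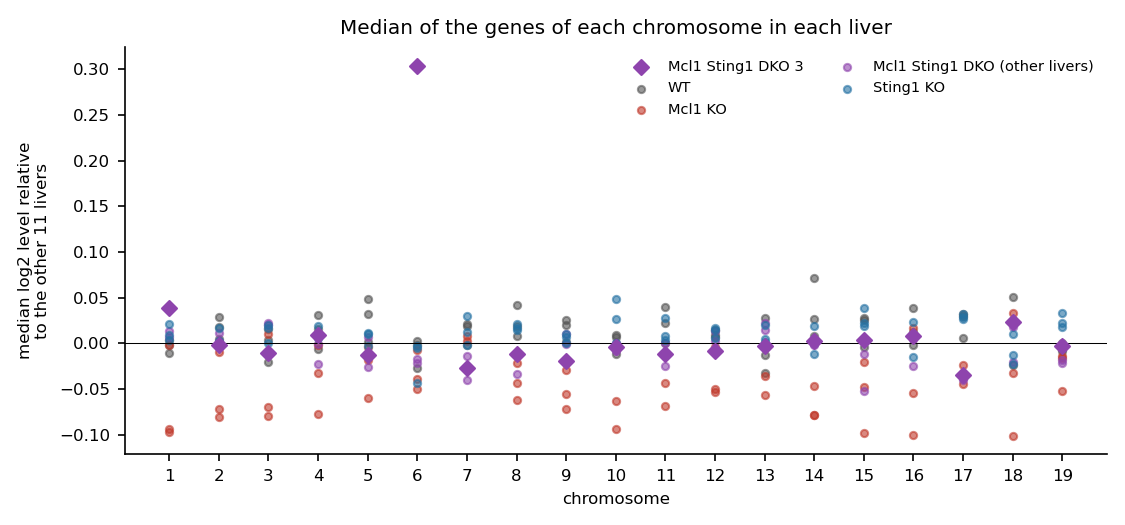
Median log2 level of the genes of each chromosome (horizontal axis) in each liver relative to the other 11 livers, colored by genotype. Chromosome 6 of Mcl1 Sting1 DKO liver 3 (diamond) stands at 0.30, and all other points lie between -0.10 and 0.07.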

How the data were processed

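Raw counts of reads per Ensembl gene were deposited by the authors, one table per liver, in whole numbers and without normalization. The labels' processing notes name STAR, featureCounts, and GRCm39. The strand setting, the annotation, and the handling of multimapping reads are not given in the sources used here, so overlapping and antisense genes and members with pseudogene copies are uncertain. The labels and the study name different RNA extraction kits. Genotypes and replicate numbers were taken from the labels. The p-values rest on the spread between livers of a genotype, with 3 livers each, in a single estimate shared by the 4 genotypes. In a fit of WT and Mcl1 KO livers alone, 1 member and 8.15% of all genes were called by edgeR.

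From the counts, CPM with TMM factors and log2 fold changes were computed with edgeR 4.0.16 (filterByExpr by genotype, glmQLFit, and glmQLFTest, prior count of 2) and limma 3.58.1 in R 4.3.3, in one model of all 12 libraries without covariates. DESeq2 1.42.0 was an alternative. TPM used the length of the reference transcript of each gene in GENCODE vM39. Genes without an annotation in vM39 held at most 0.101% of a library's counts. Library medians used log2(CPM + 0.1). The scripts were tested on simulated data. Figures used Python 3.11.15 and matplotlib 3.10.9.

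The members and the gene lists were chosen with earlier results of these data known. Named were the 2 members of each complex with the highest mean TPM, up to 4 called members per direction and comparison or else the 2 with the lowest p, complex II and Cyc1, the tissue forms of subunits with their common forms, Atp5if1, and Mcl1. Atp5f1e, Uqcrh, Ndufs1, Ndufa6, Ndufv3, and the members on chromosome 6 were named after their values were seen. Alternatives comprised other scaling, low-count filters, the groups compared alone, a replicate block, 2 covariates, and each library left out. The fit with a length trend and that with 1 Mcl1 KO library were added after seeing the data.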

Additional observations from a re-analysis of the deposited data

How the results depend on the processing

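Calls of members in Mcl1 KO against WT livers numbered 4, where 20.2% of all genes were called. They became 18 (21.4% of all genes) with library totals without scaling factors and 2 (10.2%) with Y-linked expression as a covariate. They became 0 (2.7%) with the small structured RNA share as a covariate and 1 (8.15%) in a fit of only the groups compared. The transcript length trend gave 7 (21.4%) and DESeq2 gave 9 (15.7%). Leaving out 1 library gave 2 to 44 calls, with 44 without Mcl1 KO liver 1 and 2 without WT liver 2 or WT liver 3. Over all genes these fits called 7.99% to 34.1%. The median member (0.20) was at 0.41 without scaling factors, where the median gene moved to 0.19, at -0.23 with the small structured RNA covariate, at 0.003 with the length trend, and at -0.22 with Mcl1 KO liver 1 alone, and at 0.10 to 0.36 over the libraries left out. In Mcl1 Sting1 DKO against Mcl1 KO livers, DESeq2 called 5 members, leaving out 1 library gave 0 to 53, and the median (-0.30) was at -0.085 with the small structured RNA covariate, at -0.127 with the length trend, at 0.13 with Mcl1 KO liver 1 alone, and at -0.48 to -0.21 over the libraries left out. In Sting1 KO against WT livers no alternative called a member, and the median (0.06) was at -0.21 with the small structured RNA covariate and at -0.02 to 0.10 over the libraries left out. In the interaction, DESeq2 called 1 member, leaving out 1 library gave 0 to 36, and the median (-0.40) was at 0.15 with the small structured RNA covariate, -0.13 with the length trend, 0.023 with Mcl1 KO liver 1 alone, and -0.53 to -0.27 over the libraries left out. In Mcl1 Sting1 DKO against Sting1 KO livers no alternative called a member, and leaving out 1 library gave medians of -0.24 to -0.12 in place of -0.19, with -0.088 without scaling factors and -0.115 with the small structured RNA covariate. Where a library is left out the count changes with the samples that enter; otherwise the cause was not tested. Of 800 alternatives for the named genes, 757 kept their side of the threshold, 19 lost and 24 gained a call, 50 changed the sign of a value that was not called, and none reversed a called value. The median member level varied between livers of a genotype with a pooled SD of 0.18, most of all among Mcl1 KO livers (-0.22 to 0.36).

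Livers with the same number were not shown to be paired. Correlations of their deviations from the genotype means ran from -0.55 to 0.27, and in no pair of genotypes were all 3 above 0.1. With the replicate block, 4 members were called in Mcl1 KO against WT livers (median 0.19) and 0 in the others, and 2591 genes in all in place of 3050.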
